A study of Lemna gibba and Lemna japonica and Spirodela polyrhiza with 12 samples.

Results

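The T chromosomes are the 21 chromosomes with names ending in T in the assembly of Lj8627, an accession of the duckweed Lemna japonica, beside 21 with names ending in M. They held 9081 of the 26073 small RNA loci listed for Lj8627, and of the 79572 loci listed for the 4 duckweed accessions of the study. Members were the locus lines with a size call field on a chromosome named chr, a number and T, so the choice used chromosome names and no measured value. Of the 9081 loci, 65 were microRNA hairpins and 9016 were other loci. The remaining Lj8627 loci were 15872 on the M chromosomes and 1120 on organelles and scaffolds.

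Lemna japonica is known as a hybrid of Lemna minor and Lemna turionifera, but the labels do not say what the letters M and T stand for. The labels name no treatment or genetic change for it. Sterile cultures grew at 23 °C with a 16 h light period in Schenk and Hildebrandt medium with 1% sucrose, and whole fronds, the leaf-like bodies of these floating plants, were frozen. RNA of 17 to 200 nt was sequenced from 3 biological replicates. The deposited list pools the 3 replicates into a single read count per locus, which leaves the spread between replicates unknown and allows no test across samples. Intervals below are 95% Wilson intervals, or intervals of a difference or ratio built from them, and they cover counting error only, since loci are not replicates and the reads carry no molecular identifiers.

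In plants, Dicer-like enzymes cut double-stranded RNA into small RNAs of set lengths. DCL4 and DCL1 mainly give 21 nt products, DCL1 those from microRNA hairpins, while DCL2 gives 22 nt and DCL3 gives 24 nt small interfering RNAs. In Arabidopsis, 22 nt RNAs can prime a target transcript for the making of further small RNAs, and 24 nt RNAs guide DNA methylation of transposons and other repeats. The size class of a locus names the size that dominates its reads. A locus without a size call has too few reads within the Dicer size range. A locus is assigned to the plus or the minus strand when most of its reads lie on that strand of the assembled chromosome, and otherwise to neither. Which strand of a chromosome is called plus is set by the assembly.

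The 21 T chromosomes spanned 415 Mb up to their last locus, from 7.503 Mb on chr17T to 32.1 Mb on chr1T. T loci held 2529832 reads, 46.9% of the reads in the Lj8627 list. Hairpins took 83.1% of them, and the 9016 other loci held 428521 reads. These other loci were mostly shallow. The smallest held 3 reads, the median was 7 reads, and 28.3% held 3 or 4 reads. The 374 loci with at least 100 reads, 4.15% of all, held 76.6% of the reads.

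Outside hairpins the loci were spread fairly evenly over 4 size classes, with 22 nt loci as a large part. The 21 nt class had 2580 loci or 28.6% (27.7 to 29.6), the 22 nt class 2104 loci or 23.3% (22.5 to 24.2), the class without a size call 2067 loci or 22.9%, and the 24 nt class 1856 loci or 20.6% (19.8 to 21.4). The 23 nt class was small, with 409 loci or 4.54%. There were 1.13 loci of 22 nt for every 24 nt locus (1.07 to 1.21). On the M chromosomes, read from the same libraries, 22 nt loci were 8.91% of loci (8.48 to 9.37), and there were 0.208 of them for every 24 nt locus (0.196 to 0.220). On 10 of 21 T chromosomes 22 nt loci outnumbered 24 nt loci, and on 0 of 21 M chromosomes. Densities of 22 nt loci were closer, at 5.07 per Mb spanned on T and 4.18 on M. T was denser than M in 22 nt loci in 15 of 21 chromosome numbers. The sets differed far more in 24 nt loci, with 4.47 per Mb on T and 20.1 on M. All loci outside hairpins numbered 21.7 per Mb on T and 46.9 on M.

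The 22 nt loci were also deeper than most others on T, and more of them were long. Median depth was 11 reads in the 22 nt class, where the middle 50% of loci held 6 to 21 reads. The median was 8 reads for 21 nt loci, 7 for loci without a size call, and 5 for 23 nt and 24 nt loci. At least 10 reads were held by 1212 of the 2104 loci of 22 nt, 1080 of the 2580 of 21 nt and 109 of the 1856 of 24 nt. Among loci of that depth on T the 22 nt class was the largest, with 37.5%. This did not hold among the 374 loci with at least 100 reads, of which 183 had no size call, 96 were 21 nt and 88 were 22 nt. Median length differed little, with 429 bp for 22 nt, 421 bp for 21 nt and 414 bp for 24 nt loci. Loci over 600 bp made up 29.1% of the 22 nt class (27.2 to 31.1), 18.1% of the 21 nt class and 2.10% of the 24 nt class. On M the 22 nt share over 600 bp was 15.4%, which is 13.7 percentage points lower (10.9 to 16.3). Reads per locus moved with this difference. Among loci with at least 10 reads the shares were 49.8% on T and 44.4% on M, a difference of 5.38 points (0.0963 to 10.6).

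Reads were divided otherwise than loci. Loci without a size call held 162928 reads, 38.0% of those outside hairpins, followed by 156245 reads or 36.5% in 21 nt loci and 89776 reads or 20.95% in 22 nt loci. The 24 nt loci held 10341 reads, 2.41%. The reads of the 21 nt class were concentrated, with 50% of them in 3 loci. It took 23 loci to reach 50% in the 22 nt class and 567 in the 24 nt class, where the deepest locus held 152 reads.

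Strand set the 22 nt loci of T apart. Of 2104 loci, 655 lay on the plus strand, 141 on the minus strand and 1308 on neither. Among those given to a single strand, 82.3% were thus plus (79.5 to 84.8), or 4.65 plus loci for each minus locus. On the M chromosomes 256 loci were plus and 204 minus, a plus share of 55.7% (51.1 to 60.1), which is 26.6 percentage points lower (21.4 to 31.8). Over the chromosomes of the other accessions, the plus share of 22 nt loci outside hairpins was 58.7% in Lg7742a, 55.7% in Wa8730 and 50.8% in Sp9509. These shares were not matched for reads per locus. The smallest locus held 3 reads in the lists of Lg7742a and Lj8627, 4 in Wa8730 and 5 in Sp9509. Plus 22 nt loci had a median of 5 reads in Lg7742a, 9 in Wa8730, 18 in Sp9509 and 10 on T.

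**Figure D1:**
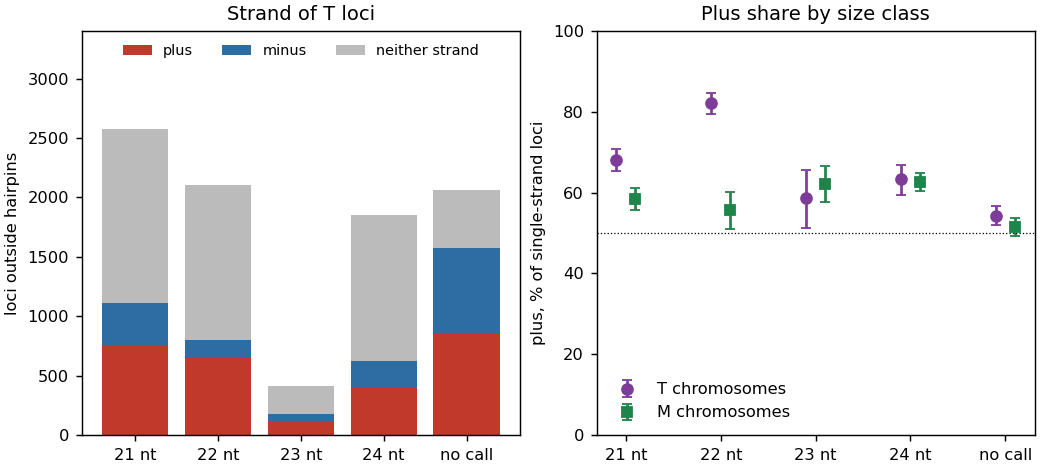
Left, number of T loci outside hairpins in each size class, stacked by strand; right, plus-strand loci as a percentage of single-strand loci on T and M chromosomes, with 95% Wilson intervals and a dotted line at 50%. The 22 nt class of T sits at 82.3%, while every other class on either set lies between 51.5% and 68.1%.

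Other classes of T leaned to plus as well, less so. The 21 nt class had 758 plus and 355 minus loci, 68.1% plus (65.3 to 70.8), against 58.5% on M, a difference of 9.65 points (5.74 to 13.5). The 24 nt class had 395 plus and 229 minus loci, and its 63.3% lay 0.583 points above M (-3.86 to 4.92). For 23 nt loci the plus share was 58.7% on T and 62.2% on M. Loci without a size call were nearest to balance, at 54.4% plus on T and 51.5% on M. The 22 nt class exceeded the 21 nt class of T by 14.2 points (10.3 to 17.9) and the 24 nt class by 18.99 points (14.4 to 23.6). On M the plus share of the 22 nt class minus that of the 24 nt class was -7.07 points (-12.1 to -2.05).

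The plus excess of 22 nt loci was held by loci of middling depth and was not seen in the deepest. With 3 or 4 reads, 71 loci were plus and 37 minus, 65.7% plus. The share was 81.1% at 5 to 9 reads, and at 10 to 19 reads it reached 91.5% (87.0 to 94.6), from 194 plus and 18 minus loci. At 20 to 49 reads 118 loci were plus and 15 minus, and at 50 to 99 reads 21 were plus and 2 minus. With at least 100 reads 20 loci were plus and 15 minus, 57.1% (40.9 to 72.0), and the M share there was 56.0%. At 10 to 19 reads the M share was 52.8%. Between 10 and 49 reads, the 22 nt loci of T were 90.4% plus (86.9 to 93.1), the 21 nt loci 70.1% and the loci without a size call 58.6%. The classes lay closer at 5 to 9 reads. There the 21 nt loci of T were 75.6% plus (71.1 to 79.5), 24 nt loci 75.3% (69.5 to 80.3) and 23 nt loci 69.6% (57.9 to 79.2). These intervals overlap that of the 22 nt loci (76.1 to 85.2). On M the shares at that depth were 67.6% for 21 nt, 62.8% for 22 nt, 72.2% for 23 nt and 68.0% for 24 nt loci.

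The plus share also differed with length. Up to 450 bp, 393 of the 22 nt loci on T were plus and 115 minus, 77.4% plus (73.5 to 80.8). Over 450 and up to 600 bp, 104 were plus and 9 minus, and from there to 1000 bp 132 were plus and 11 minus, 92.3% (86.8 to 95.7). Above 1000 bp 26 were plus and 6 minus. Length and reads go together, so both were taken at once. Among loci with 10 to 49 reads, 96.0% of those over 450 bp were plus (92.5 to 97.9), from 215 plus and 9 minus loci, compared with 80.2% of the shorter ones (72.2 to 86.3). At 5 to 9 reads the shares were 85.7% over 450 bp (60.1 to 96.0), from 12 plus and 2 minus loci, and 80.8% in shorter ones (75.7 to 85.1), and these intervals overlap. Plus loci exceeded 450 bp in 40.0% of cases, minus loci in 18.4% and loci on neither strand in 52.4%.

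**Figure D2:**
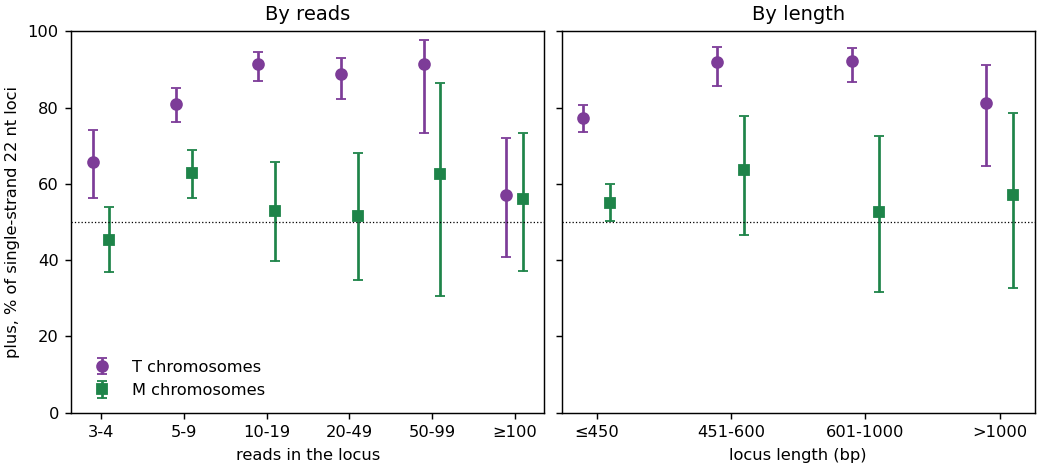
Plus-strand loci as a percentage of single-strand 22 nt loci outside hairpins, by reads in the locus (left) and by locus length in bp (right), on T and M chromosomes, with 95% Wilson intervals and a dotted line at 50%. On T the share rises to 91.5% at 10 to 19 reads and is 57.1% at 100 reads or more, while the intervals of M include 50% in every bin of reads except 5 to 9.

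Counted in reads, the plus excess was absent. The 655 plus loci held 13414 reads and the 141 minus loci 16532 reads, so plus loci had 44.8% of single-strand 22 nt reads. The 15 minus loci with at least 100 reads held 15154 of the minus reads, and the 20 such plus loci held 4394 reads. Below 100 reads, 635 plus loci held 9020 reads and 126 minus loci held 1378. Most 22 nt reads of T, 66.6%, lay in loci on neither strand.

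The deepest minus loci were far deeper than the deepest plus loci. A pair of neighbouring minus loci on chr19T, from 9472499 to 9473548 and from 9474017 to 9474842, held 3474 and 2877 reads. The next held 2432 reads on chr14T from 4360061 to 4360563, 2126 reads on chr2T from 17053326 to 17054027 and 1181 reads on chr1T from 28635308 to 28636108. On the plus strand the most reads were 521, on chr14T from 15357791 to 15358792. Next came 511 reads on chr15T from 3034034 to 3034706, 369 on chr21T from 8304597 to 8305862, 292 on chr15T from 16223286 to 16223765 and 272 on chr3T from 17808220 to 17809550.

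The excess was present on every T chromosome. The plus share of single-strand 22 nt loci was above 50% on 21 of 21, and the interval lay wholly above 50% on 19 of 21. A share above 50% was not particular to 22 nt loci, since 24 nt loci had it on 21 of 21 T chromosomes and 21 nt loci on 19 of 21, with medians of 61.8% and 67.4%. It was lowest on chr3T, with 24 plus and 18 minus loci or 57.1% (42.2 to 70.9), and on chr19T, with 14 and 8 or 63.6% (43.0 to 80.3). On chr11T 49 loci were plus and 3 minus, on chr13T 48 and 4, and on chr7T 58 and 6. All 9 on chr17T and all 8 on chr21T were plus, where so few loci leave intervals that start at 70.1% and 67.6%. The median over chromosomes was 85.0% on T and 57.1% on M, where the share ranged from 21.4% to 84.6%. In each of the 21 chromosome numbers the T share was above the M share. The same held in 16 of 21 for 21 nt loci and in 9 of 21 for 24 nt loci.

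**Figure D3:**
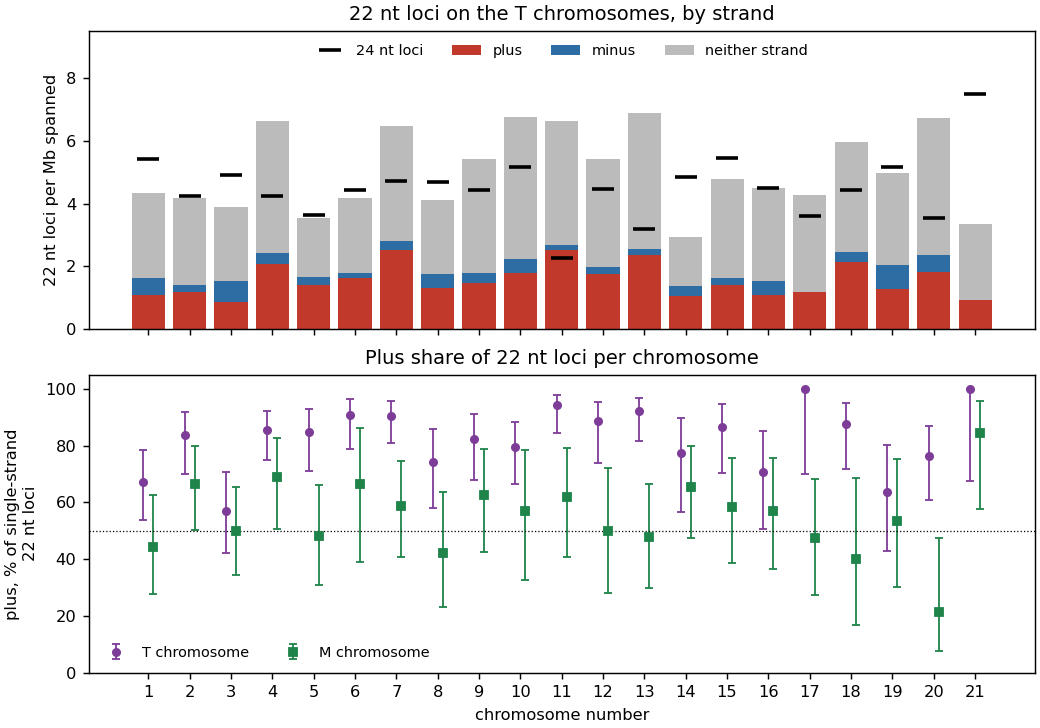
Top, 22 nt loci outside hairpins per Mb spanned on each T chromosome, stacked by strand, with the density of 24 nt loci as black dashes; bottom, plus share of single-strand 22 nt loci on the T and M chromosome of each number, with 95% Wilson intervals and a dotted line at 50%. Density runs from 2.95 per Mb on chr14T to 6.89 on chr13T, and the T share lies above the M share in all 21 numbers.

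Most plus loci were not lined up in same-strand runs, though the number of runs that random placement would give was not computed. When 22 nt loci on the same strand and under 10 kb apart, with no 22 nt locus of the other strand between them, were joined, the plus strand had 599 single loci and 28 pairs. The longest of all such runs was on the minus strand, with 3 loci and 553 reads on chr3T from 9976 to 25686. The first pairs in chromosome order were on chr2T from 25501520 to 25506212, with 29 reads, and on chr4T from 9525595 to 9527065, with 18 reads, both plus.

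Loci of 22 nt lay close to other loci of 21 or 22 nt. The nearest locus was under 1 kb away for 34.4% of 22 nt loci (32.4 to 36.5), 27.2% of 21 nt loci and 11.4% of 24 nt loci. Of the 724 near neighbours of 22 nt loci, 363 were 22 nt and 306 were 21 nt, together 92.4%, although these classes made up 52.0% of the loci outside hairpins. On M, 73.3% of the near neighbours of 22 nt loci were of these classes, which made up 29.1% of loci there. Loci of 24 nt had 62 near neighbours of 21 or 22 nt among 211. Near neighbours given to a single strand were mostly on the same strand. Near neighbours of plus 22 nt loci were 80 plus, 4 minus and 117 on neither strand, and those of minus loci were 3 plus, 10 minus and 16 on neither. Among all single-strand loci of T, 68.1% of 21 nt and 82.3% of 22 nt loci were plus. The counts for minus loci are small.

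Loci on neither strand included the longest and deepest of the class. A 22 nt locus of 33122 bp on chr2T, from 28570815 to 28603936, held 15603 reads, 17.4% of the 22 nt reads of T and 70.5% of those of chr2T. Per kb it held 471 reads. Of the 612 loci of 22 nt over 600 bp, 71.4% were on neither strand. On chr3T a two-strand locus of 2122 bp, from 16112632 to 16114753, held 3399 reads.

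The T chromosomes differed in how many 22 nt loci they carried. Per Mb spanned, chr13T had 6.89 (140 loci), and chr10T, chr20T, chr4T, chr11T and chr7T had 6.77, 6.73, 6.64, 6.62 and 6.46, which are close to one another. The lowest were chr14T with 2.95 (47 loci), chr21T with 3.35 and chr5T with 3.55. The highest was 2.33 times the lowest (1.68 to 3.24). Median reads per 22 nt locus moved little, from 9 to 14.5 reads over the 21 chromosomes.

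Density of 24 nt loci ran in another order. It was lowest on chr11T, at 2.26 per Mb (44 loci), and highest on chr21T, at 7.51 (65 loci), a ratio of 3.33 (2.27 to 4.86). So chr11T had 2.93 loci of 22 nt for each of 24 nt and chr21T had 0.446. For 21 nt loci the range was 3.87 per Mb on chr17T to 7.98 on chr20T. Loci without a size call ranged from 3.57 per Mb on chr10T to 6.65 on chr13T, where 43 of the 135 lay in a single array described further on. Without that array chr13T had 4.53 per Mb and chr16T was highest with 6.24. The range was 0.533 per Mb on chr17T to 1.73 on chr21T for 23 nt loci.

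Over windows, 22 nt loci of T were clumped more than its 21 and 24 nt loci. In 404 full windows of 1 Mb the mean was 5.07 loci of 22 nt and the variance over mean 3.37, a ratio that lies near 1 for random placement. It was 1.87 for 21 nt loci, with a mean of 6.20, and 1.89 for 24 nt loci, with a mean of 4.30. On M it was 1.66 for 22 nt loci, with a mean of 4.05, and 4.80 for the far denser 24 nt loci. These ratios include differences in density between chromosomes. Taken around each chromosome's own mean, a setting chosen after seeing the data, they were 3.21, 1.84 and 1.82 for the 22, 21 and 24 nt loci of T. The fullest 22 nt window lay on chr4T from 12000001 to 13000000, with 28 loci and 1267 reads, of which 6 were plus, 22 on neither strand and 0 minus. The fullest 21 nt window was on the same chromosome, from 9000001 to 10000000, with 25 loci. For 24 nt loci it held 17 loci, on chr7T from 10000001 to 11000000. No 22 nt locus fell in 14 of the 404 windows.

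Ends and middles were compared by taking the outer 20% of each span on each side as ends. For 22 nt loci the ends held 5.01 and the middle 5.11 loci per Mb, a ratio of 0.981 (0.899 to 1.07), and the ends were denser on 11 of 21 chromosomes. With ends of 2 Mb the ratio was 1.11 (1.002 to 1.23), so its place against 1 depended on how ends were defined. The ratio differed between chromosomes, from 0.357 on chr18T to 2.81 on chr15T. Loci of 24 nt were denser at ends, with 5.40 against 3.86 per Mb, a ratio of 1.40 (1.28 to 1.53), on 17 of 21 chromosomes. Most of these loci held fewer than 10 reads, and with at least 10 reads the ratio was 0.870 (0.590 to 1.28) over 109 loci. Loci without a size call gave 1.30 (1.19 to 1.42), on 15 of 21 chromosomes, and 21 nt loci 1.13 (1.05 to 1.22), on 16 of 21. The 21 nt ratio turned to 0.879 (0.777 to 0.994) with at least 10 reads. On M the ratios were 1.15 (1.03 to 1.28) for 22 nt and 1.47 (1.40 to 1.54) for 24 nt loci.

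By strand, plus 22 nt loci had 1.42 per Mb at ends against 1.68 in the middle, a ratio of 0.845 (0.720 to 0.991). Minus loci gave 1.32 (0.9496 to 1.83), and loci on neither strand 1.02 (0.915 to 1.14). The lower density of plus loci was at the last end only. With the span cut into 10 equal parts, parts 1 and 2 held 69 and 74 plus loci, and parts 9 and 10 held 38 and 55. The parts between held 58 to 78. Other end widths were not tried by strand. The first and the last 10% of the span were also unlike. The first 10% held 267 loci of 22 nt, the most of the 10 equal parts, and the last 10% held 184. The 24 nt class had 219 in the first and 307 in the last 10%, and the class without a size call 233 and 306. The 306 include the array of 43 loci on chr13T, without which the last 10% held 263 loci of that class. Of the 307 loci of 24 nt in the last 10%, 44.6% lay on 5 chromosomes, chosen after their values were seen and led by chr3T with 35. These 5 chromosomes made up 29.3% of the span and held 28.7% of all 24 nt loci of T. These sums did not reflect a direction shared by all chromosomes. The first 50% of the span held more 22 nt loci than the last 50% on 12 of 21 chromosomes. For 24 nt loci this was so on 8 of 21, and for loci without a size call on 10 of 21. Which end of a chromosome comes first is set by the assembly.

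**Figure D4:**
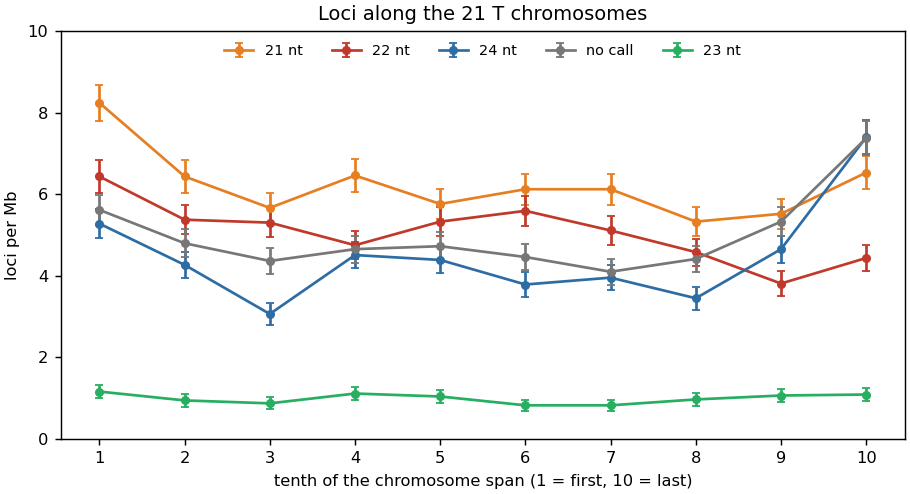
Loci outside hairpins per Mb in each 10% of the span, summed over the 21 T chromosomes, by size class; bars show the square root of the count as counting error. The 22 nt class starts with 267 loci in the first 10% and ends with 184, whereas the 24 nt class has 307 loci in the last 10%.

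Among the other classes, single loci stood out by depth. In the 21 nt class the deepest locus, with 40638 reads, was a plus one on chr19T from 10178448 to 10179900, and it held 26.0% of the reads of its class. A minus locus on chr12T from 4335972 to 4337560 held 24982 reads, and a plus locus on chr3T from 5517084 to 5517615 held 13069. The longest 21 nt locus, of 5725 bp on chr3T from 30931 to 36655, held 354 reads on neither strand. The 23 nt class was led by 2035 reads on chr14T from 2838568 to 2838995, 22.05% of its reads, then by 1867 on chr2T from 12616367 to 12616879 and 1104 on chr5T from 2317472 to 2317931. The deepest 24 nt locus, a plus one on chr19T from 8906072 to 8906497, held 152 reads. A plus locus on chr6T from 23910974 to 23911398 held 89, and a minus one at 11221196 to 11221620 of chr16T held 70. The longest 24 nt locus, on chr20T from 2948957 to 2950647, was 1691 bp long with 35 reads.

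The reads of loci without a size call were uneven between chromosomes. The 3 deepest loci all lay on chr17T, from 5995313 to 5999834 with 21922 reads, from 7496828 to 7499922 with 11904 and from 7492829 to 7494706 with 9376. The 33 such loci of chr17T, the shortest T chromosome, held 31.9% of the reads of the class, out of 2067 loci in all. A separate stretch of 32.8 kb on chr13T, from 19331786 to 19364571, held 43 loci without a size call, all 43 on the plus strand and each with 11 to 38 reads. Their starts were a median of 688.5 bp apart, and 27 of the 42 spacings lay within 10 bp of that. It was chosen after its values were seen. On T, 12 runs of 3 or more same-strand loci under 1 kb apart were of this class, 5 plus and 7 minus, compared with 1 of 21 nt and 0 of 22 nt.

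MicroRNA hairpins were set apart from these loci by depth. The 65 hairpins held 2101311 reads, with a median of 2285 and a range from 4 to 641128. Each T chromosome had at least 1, and chr1T had the most with 7. They were 101 to 257 bp long, with 36 on the plus and 29 on the minus strand, 55.4% plus (43.3 to 66.8). This interval lies wholly below the 82.3% of 22 nt loci, but these shares were not matched for reads. The 22 nt loci with at least 100 reads were 57.1% plus (40.9 to 72.0), within the range of the hairpins. Per Mb the ends held 0.151 and the middle 0.161 hairpins, a ratio of 0.938 (0.572 to 1.54). The mature strand, the arm listed as the microRNA itself, was 21 nt long in 58 hairpins, 22 nt in 6 and 20 nt in 1. The 72 hairpins of M held 2097819 reads, close to the T total. Hairpin reads were 669890 on chr7T and 674537 on chr7M, and 652527 on chr16T and 654159 on chr16M. They were less alike on chr2T and chr2M, with 20106 and 7608. How reads matching both sets were placed is not given, and its part in these values was not tested.

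The top 3 hairpins held 75.2% of hairpin reads on T. They lay on the minus strand of chr7T from 761196 to 761407 with 641128 reads, on the plus strand of chr16T from 13276137 to 13276393 with 628710, and on the plus strand of chr5T from 19404389 to 19404514 with 311163. The hairpin on chr5T was of the 22 nt class with a 22 nt mature strand of 294717 reads. It held nearly all of the 313006 reads in the 3 hairpins of 22 nt, 14.9% of hairpin reads. The others of that class were on chr18T from 12283983 to 12284110, with 1446 reads, and on chr12T from 13361807 to 13361932, with 397 reads. Next by reads were hairpins on chr12T from 1069842 to 1069972 with 64380 and on chr3T from 17177154 to 17177346 with 48803.

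Mature strands held 88.3% of hairpin reads and star strands 3.06%. The median hairpin had 75.5% of its reads in the mature strand, lower than the pooled share, which is set by the top hairpins. In 4 hairpins the strand listed as star held more reads than the strand listed as mature. The deepest of these was the chr3T hairpin above, with 2179 mature and 43074 star reads. The others were on chr20T from 13403761 to 13403876 with 115 and 434, on chr10T from 18743428 to 18743551 with 44 and 401, and on chr1T from 12877883 to 12878062 with 47 and 97. A hairpin on chr12T from 14866462 to 14866590, the ninth by reads, had 998 mature and 6 star reads out of 33354, so most of its reads lay outside both listed strands. These hairpins were chosen after their values were seen. Of the 65 hairpins 51 held at least 100 reads, and 4 held fewer than 10.

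**Figure D5:**
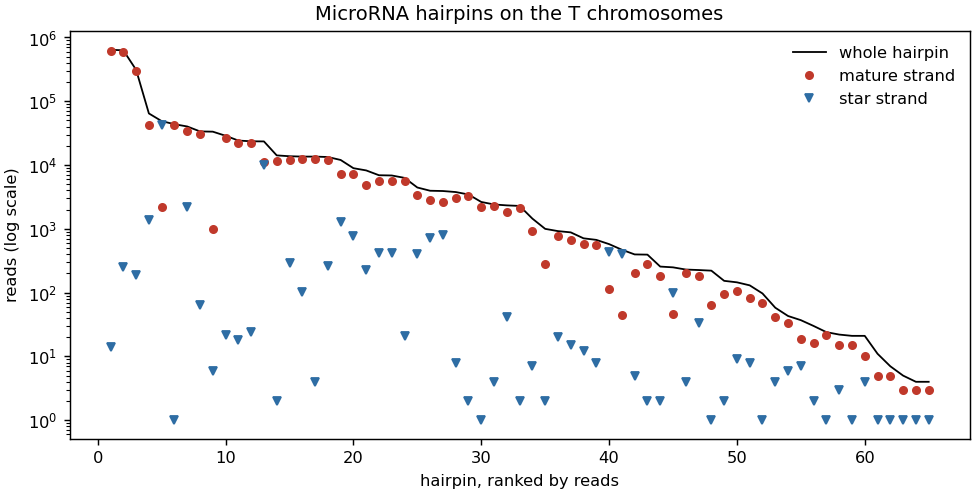
Reads in the 65 T hairpins ranked by depth (log scale), with reads of the whole hairpin as a line, the mature strand as circles and the star strand as triangles. The first 3 hairpins hold 311163 to 641128 reads, and star lies above mature in 4 hairpins, the deepest being the fifth.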

How the data were processed

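Small RNA loci of Lj8627 were analysed from 1 deposited list. The list names ShortStack as its source and asm202106v1 as the assembly. Per the submitters' processing notes fastp (version 0.20.1) and deepTools were also used, with no role stated. The authors deposited a whole-number count of reads per locus, with no normalization. The sources used here do not give alignment settings, locus thresholds or the handling of reads that match several places. The 3 replicates are pooled, so precision is limited to counting error, and total library depth was not used.

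Mature and star lines repeat reads of their hairpin and were used only to describe hairpins. Span ran to the last locus of a chromosome. No chromosome lengths or sequences were used. Intervals were Wilson intervals for shares, Newcombe intervals for differences and binomial intervals for ratios of counts. Loci named were, on T, the 5 deepest hairpins, the 3 deepest other loci per size class, the longest 21, 22 and 24 nt loci, the 5 plus and 5 minus 22 nt loci with most reads, the 3 longest same-strand runs, the fullest windows and the chromosomes of highest and lowest density; other items were chosen after their values were seen. The members, lists and alternatives were chosen with earlier results of these data known. Alternatives were read minimums of 5, 10 and 100, hairpins or top loci handled otherwise, other ends, windows and lengths, merged neighbours, weighting by reads and each T chromosome left out. Computations used Python 3.11.15, pandas 2.3.3, numpy 2.4.6, scipy 1.17.1 and matplotlib 3.10.9, tested on simulated data. Sample columns left unused numbered 0.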

Additional observations from a re-analysis of the deposited data

How the results depend on the processing

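No paired analysis was possible because each locus carries a single count pooled over 3 replicates, so no replicate was left out either. Chromosome lengths from a header or reference were not used, so that alternative was not run. Of 57 values recomputed under another setting, 26 stayed within the interval of the value reported, 28 were counted as moved and 3 as reversed. The variance over mean and the highest density had no interval, so their values were counted as moved whatever their size. The 24 nt end ratio counted as reversed, with at least 10 reads, had an interval that includes 1 (0.590 to 1.28). All 84 values with a single T chromosome left out stayed within the interval of the value reported. They moved the 22 nt plus share between 81.5% and 83.7%, the 22 nt share of loci between 22.9% and 23.7%, the 24 nt share between 20.3% and 21.04%, and the 22 nt end ratio between 0.936 and 1.02.

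With at least 5 reads the 22 nt share of T loci was 28.8%, the 24 nt share 15.2%, the 22 nt plus share 84.9%, 22 nt loci per Mb 4.49, the 21 nt end ratio 1.04 and the variance over mean 3.50. With at least 10 reads the 22 nt share was 37.5%, the 24 nt share 3.38%, the plus share 87.6%, its excess over M 33.7 points, the single-strand share of 22 nt loci 33.3%, 22 nt loci per Mb 2.92 and the variance over mean 3.24. Here the end ratios turned to 0.870 for 24 nt and 0.879 for 21 nt loci. With at least 100 reads the 22 nt share of loci was 23.5% (19.5 to 28.1), the 22 nt plus share 57.1% and its excess over M 1.14 points (-22.6 to 25.2), and weighted by reads the plus share turned to 44.8%. These follow from which loci were counted or how they were weighted; beyond that the cause was not tested.

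Ends of 10% on each side gave ratios of 1.09, 1.58 and 1.25 for 22, 24 and 21 nt loci, and ends of 2 Mb gave 1.11, 1.55 and 1.24. The 22 nt interval was 0.983 to 1.21 for the former and 1.002 to 1.23 for the latter, which lies above 1. Windows of 0.5 and 2 Mb gave a variance over mean of 2.55 and 4.22, and 1 Mb windows around each chromosome's own mean gave 3.21. The 22 nt share of reads was 15.9% with hairpins kept and 27.1% without the 10 deepest other loci, and hairpins held 39.8% of reads without the 10 deepest loci. Chosen after seeing the data, leaving out the array on chr13T gave loci without a size call a plus share of 53.1% and an end ratio of 1.24, and their highest density became 6.24 per Mb. Depth limits the 23 and 24 nt classes, with 91.0% and 94.1% of loci under 10 reads, and 37 and 109 loci at 10 reads or more.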
